A study of Mus musculus with 7 samples.

Results

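The BCL2 family decides whether a stressed cell keeps its mitochondria intact or dies by apoptosis, and 10 of its genes were followed here in haematopoietic stem cells (HSCs) of old and young mice. The members were chosen by symbol from the deposited count table: Bcl2, Bcl2l1, Mcl1, Bax, Bak1, Bcl2l11, Bbc3, Pmaip1, Bid and Bad, which are 10 of its 24015 gene rows. The HSCs were sorted from C57BL/6 bone marrow as lineage-negative Sca-1+ c-Kit+ (LSK) cells that were CD150+ and CD48-, and polyadenylated RNA of the sorted cells went into bulk sequencing. Old HSCs gave 3 libraries and young HSCs gave 4, and old against young was the only comparison. The labels give no age in months or weeks, no sex, and no word on whether a library came from 1 mouse or from pooled mice. The p-values thus speak of the spread among libraries, which may be technical in part.

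In this family, antiapoptotic proteins such as BCL2, BCL-XL (from Bcl2l1) and MCL1 hold the pore-forming effectors BAX and BAK (from Bak1) in check at the outer mitochondrial membrane. BH3-only proteins, here BIM (Bcl2l11), PUMA (Bbc3), NOXA (Pmaip1), BID and BAD, sense stress and either occupy the antiapoptotic proteins or activate the effectors. Once BAX or BAK opens the membrane, cytochrome c escapes and caspases are activated. MCL1 is known to be required for the survival of HSCs in mice.

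The proteins meet through the BH3 region, so the coding sequence of its core is shown for the 9 members that had counts. Each stretch of 36 bases was read from the longest coding transcript of the gene in GENCODE M21 (GRCm38) and is written along the coding strand. Capitals mark the conserved leucine codon and the later pair of codons, the second of which encodes aspartate.
Bcl2: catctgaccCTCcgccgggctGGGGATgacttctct
Bcl2l1: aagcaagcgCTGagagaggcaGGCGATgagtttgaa
Mcl1: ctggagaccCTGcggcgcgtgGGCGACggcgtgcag
Bax: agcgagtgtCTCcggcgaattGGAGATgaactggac
Bak1: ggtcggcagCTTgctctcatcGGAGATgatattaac
Bcl2l11: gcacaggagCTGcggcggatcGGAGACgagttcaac
Bbc3: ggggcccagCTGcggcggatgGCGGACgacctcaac
Bid: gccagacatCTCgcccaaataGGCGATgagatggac
Bad: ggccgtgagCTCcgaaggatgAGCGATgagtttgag

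The pattern searched was a leucine codon, any 3 codons, a codon for glycine, alanine or serine, an aspartate codon, and a codon for aspartate, glutamate, lysine or glycine. It occurred 1 time in the coding sequence of each of the 9 genes, and at least once in 10.7% of 21614 coding genes, so the match describes the members and does not set them apart. The glycine codon of the marked pair is replaced by an alanine codon in Bbc3 and by a serine codon in Bad. Each stretch lies inside a single coding exon. In GRCm38 the stretch of Mcl1 is at chr3:95659427-95659462 on the plus strand, in exon 1 of 3, and that of Bcl2l1 at chr2:152829697-152829732 on the minus strand, in exon 2 of 3. That of Bax is at chr7:45465997-45466032 on the minus strand, in exon 3 of 6, and that of Bcl2l11 at chr2:128147141-128147176 on the plus strand, in exon 3 of 4. The counts were made on the older build mm9, so these positions locate the sequences and not the reads.

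The libraries held 22203806 to 32401925 counts, and 11506 genes had enough counts to be tested. Levels are given in CPM, the reads of a gene in proportion to the scaled size of its library, and 1 library's count of 0 allows up to 0.0929 to 0.137 CPM, the worth of 3 counts, which covers counting error only. Young 1 and young 2 stood apart from the other libraries on the first and second principal component (27.7% and 21.5% of the variance). All 9 markers of HSCs fixed for the check were detected, and their summed level was 2413 to 2718 CPM in old and 1228 to 2110 CPM in young libraries. The 3 markers of multipotent progenitors, Cd34, Cd48 and Flt3, summed to 85.2 to 135 CPM in old and 261 to 406 CPM in young libraries. Cd48 and Flt3 were at 0 in every old library, and Flt3 also in young 1. Cd34 thus made up the whole sum in old libraries, and it made up most of it in young (234 to 398 CPM). The 9 neutrophil and monocyte markers summed to 1424 to 2195 CPM in old and 858 to 1432 CPM in young libraries, nearly all of it from Prtn3 and Lyz2, with Ltf and Csf1r at 0 throughout. The 10 lymphoid markers summed to 22.6 to 105 and 86.6 to 382 CPM, mostly Nkg7, with Ms4a1, Ebf1, Cd3e, Cd8a and Ncr1 at 0. The 8 erythroid markers summed to 0 to 30.02 and 18.5 to 53.97 CPM, with all 4 haemoglobin genes at 0. The 6 megakaryocyte markers summed to 136 to 351 and 296 to 551 CPM, and the 7 of endothelium and stroma to 16.6 to 42.5 and 4.42 to 95.8 CPM, with Lepr at 0. The part of these cells in the values of the BCL2 family was not tested, and in bulk samples fewer cells of a type and less RNA per cell cannot be told apart.

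None of the 9 tested members passed the threshold between old and young HSCs (edgeR quasi-likelihood test, adjusted p under 0.05 over all tested genes), where 0.252% of all tested genes did. None reached an unadjusted p under 0.05 either (9.12% of all tested genes). DESeq2 called 0 of them (4.96% of its genes), limma-voom called 0 (0.435%), and edgeR run only on genes averaging 50 CPM or more called 0 of 5 (2.88%). In none of the 9 did the old libraries lie apart from the young, as they did in 12.7% of all tested genes. Pmaip1 had no count in any library and was not tested. The median log2 fold change of the 9 was -0.10 against -0.03 over all tested genes, with 2 positive and 7 negative.

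**Figure D1:**
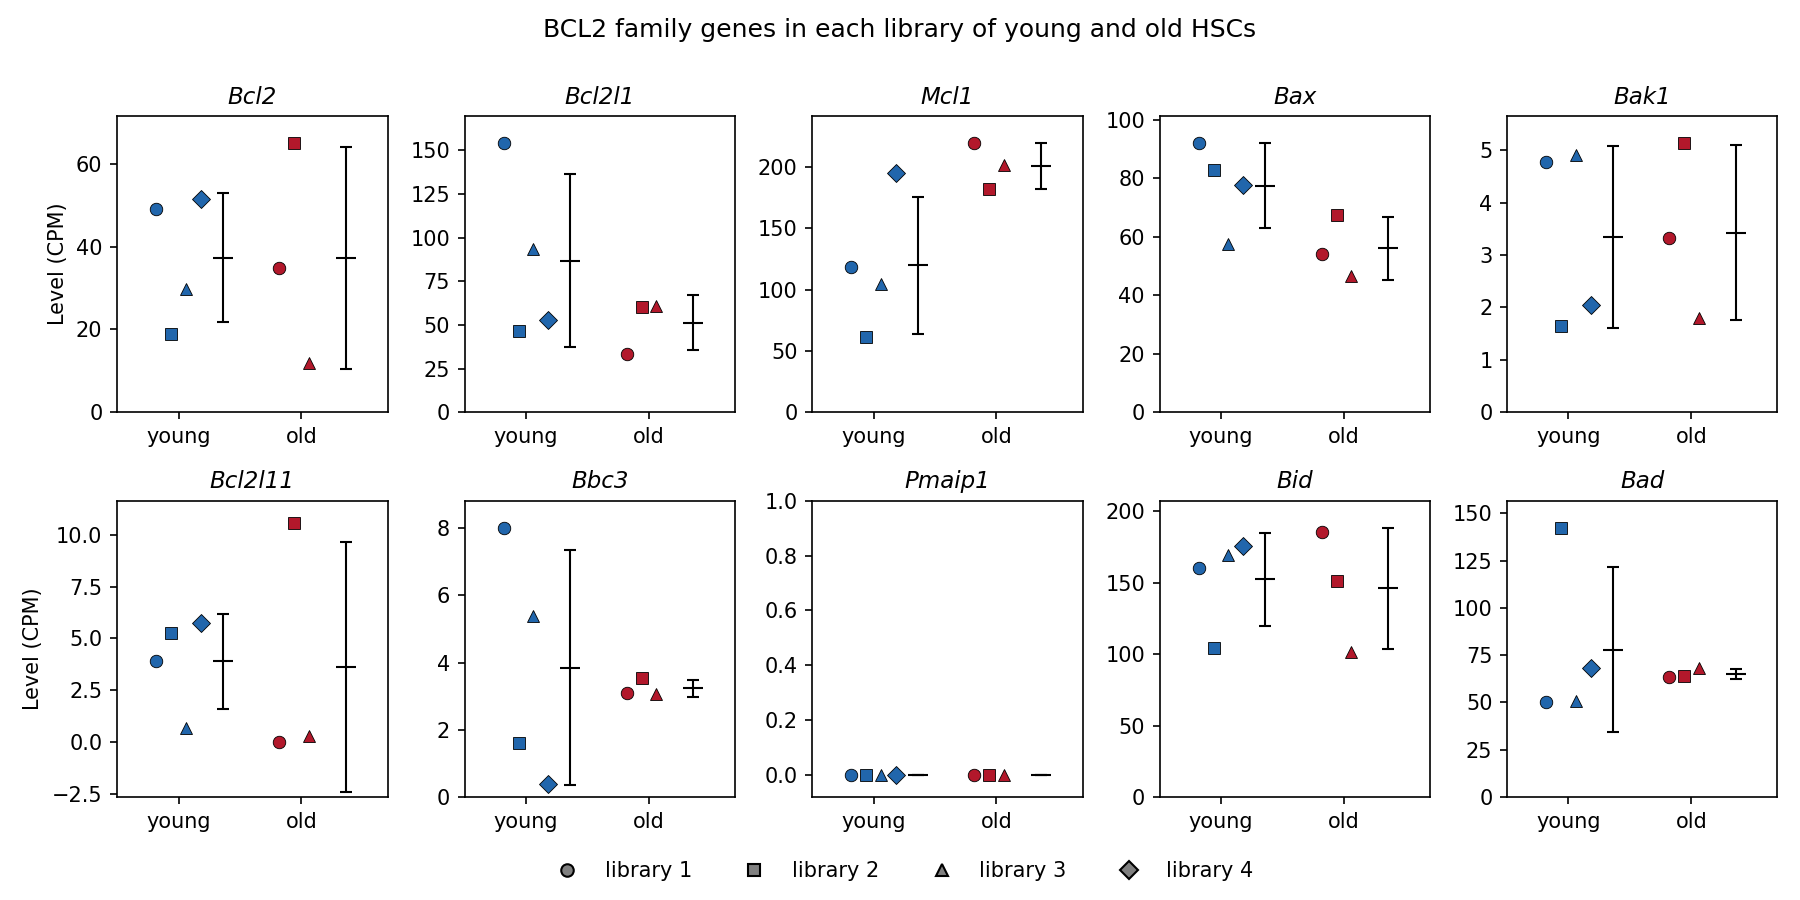
Level of each of the 10 BCL2 family genes in CPM (vertical axis, a separate scale for each gene) in young and old HSCs; each point is 1 library, its shape the library number, and the bar at the right of each group is the mean ± SD (n = 4 young, n = 3 old). Mcl1 lies at 182 to 219 CPM in old HSCs, above 3 of the 4 young libraries, while the groups overlap in every gene; the SD bar of Bcl2l11 in old HSCs reaches below 0 because 1 library holds nearly all of its counts.

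Mcl1, an antiapoptotic protein of short half-life, had the smallest p of the members and the most counts, 29504 over the 7 libraries. Its level was 219, 182 and 202 CPM in old 1, old 2 and old 3. In young 1 to young 4 it was 118, 61.4, 105 and 195 CPM. The old libraries were alike, 3 young libraries lay well below them, and young 4 lay within their range. The means were 201 ± 18.7 CPM (SD, n = 3) for old against 120.0 ± 55.8 CPM (SD, n = 4) for young, 1.68-fold higher in old. The log2 fold change was 0.75 ± 0.36 (SE) with an adjusted p of 0.598 (edgeR), and its approximate 95% interval ran from -0.06 to 1.55, or 0.962-fold to 2.92-fold. The log2 fold change was 1.08 without young 4 and 0.53 without young 2. The SD of Mcl1 on the log2 scale was 0.14 in old and 0.69 in young libraries. Over all 7 libraries it was larger than that of 86.2% of the 500 genes nearest to Mcl1 in level.

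Bcl2l1, whose main product BCL-XL protects erythroid cells and platelets, had the opposite sign. It stood at 33.1, 59.96 and 60.9 CPM in old 1 to old 3. In the young libraries it was 154 (young 1), 46.7 (young 2), 93.3 (young 3) and 52.6 CPM (young 4). The high values in young 1 and young 3 set the young mean, and the other young libraries lay inside the range of the old. The means were 51.3 ± 15.8 and 86.7 ± 49.5 CPM, a log2 fold change of -0.76 ± 0.49 (adjusted p = 0.787, edgeR) with an interval of -1.87 to 0.36. Without young 1 it was -0.32.

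Bcl2, the founding member, had nearly equal means in the groups. Its levels were 34.9, 65.1 and 11.8 CPM in the old libraries and 49.1, 18.995, 29.7 and 51.5 CPM in the young. Old 2 was the highest and old 3 the lowest of all 7 libraries. The means were 37.3 ± 26.7 and 37.3 ± 15.6 CPM, and the interval of the log2 fold change ran from -1.53 to 1.53 (adjusted p = 0.999, edgeR), so neither a 2-fold rise nor a 2-fold fall lies outside it.

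**Figure D2:**
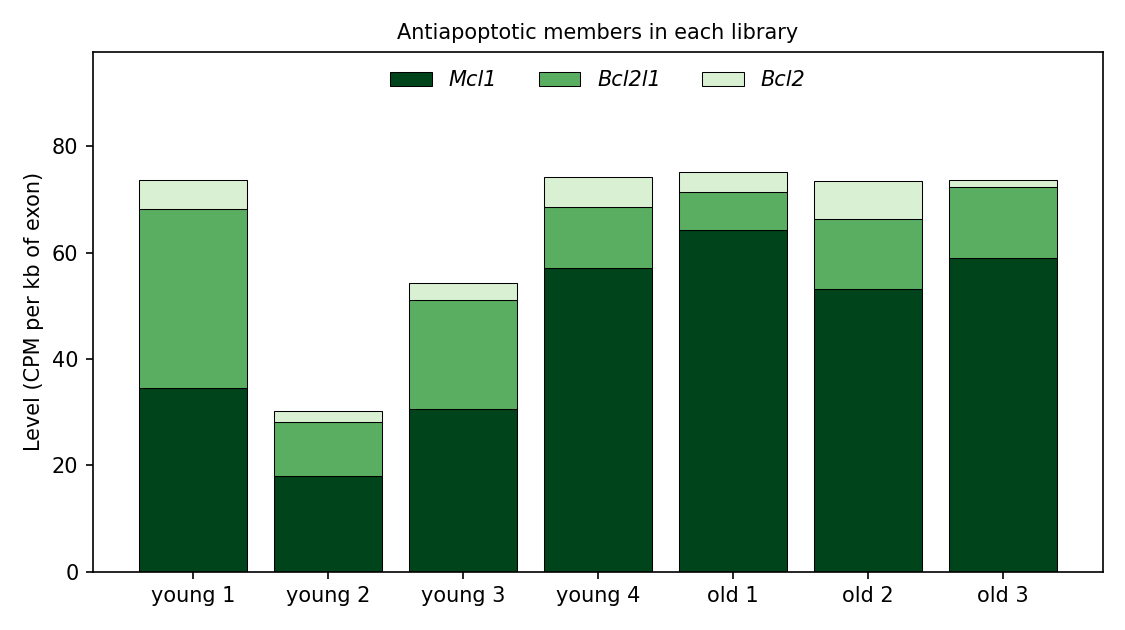
Levels of the 3 antiapoptotic members in each library, stacked, in CPM per kb of annotated exon (vertical axis, from 0), with the 4 young libraries on the left and the 3 old on the right. The stacks of old HSCs stand at 73.4 to 75.2, those of young HSCs at 30.2 to 74.3, and Mcl1 fills 72.5% to 85.3% of the old and 47.02% to 76.98% of the young stacks.

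Set per kb of exon, so that genes of different length can be compared, Mcl1 made up most of the antiapoptotic transcripts in the old libraries. Its share of the sum of Mcl1, Bcl2l1 and Bcl2 was 85.3%, 72.5% and 80.2% in old 1 to old 3. In young 1 to young 4 it was 47.02%, 59.4%, 56.5% and 76.98%. Young 4 lay within the range of the old libraries, and the 3 other young libraries lay below it. The share of Bcl2l1 was 15.1% ± 4.80 in old and 33.1% ± 12.8 in young HSCs, and in young 1 (45.7%) it nearly matched that of Mcl1. Bcl2 held 5.50% ± 3.98 and 6.93% ± 0.694. Per kb of coding sequence instead, the share of Mcl1 was 63.6% ± 10.01 in old and 42.5% ± 11.7 in young HSCs, with young 4 (58.5%) again in the range of the old libraries (52.2% to 70.8%). On that scale Bcl2l1 held 20.999% ± 6.49 in old and 39.8% ± 13.6 in young HSCs, and it lay above Mcl1 in young 1 (52.04% against 30.6%) and young 3 (45.5% against 39.3%). Bcl2 then held 15.4% ± 10.01 and 17.7% ± 2.41, so the shares of all 3 genes depend on the length used. These shares combine members chosen with earlier results known and carry no test.

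Among the effectors, Bax was well expressed and Bak1 was scarce. Bax measured 54.04, 67.5 and 46.4 CPM in old 1 to old 3. In young 1 to young 4 it measured 91.9, 82.8, 57.4 and 77.5 CPM. Young 3 lay between the old libraries, and the 3 other young libraries lay above all of them. The means were 56.0 ± 10.7 CPM for old and 77.4 ± 14.6 CPM for young. The log2 fold change was -0.47 ± 0.34 (adjusted p = 0.840, edgeR), with an interval of -1.24 to 0.30. Bax varied little, with a highest level 1.98 times the lowest and a log2 SD above only 8.40% of the 500 genes nearest to it in level.

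Bak1 had 641 counts in all 7 libraries together. It stood at 3.32, 5.14 and 1.81 CPM in the old libraries and at 4.77, 1.64, 4.91 and 2.05 CPM in the young. Both groups held high and low libraries in the same range. The means were 3.42 ± 1.67 and 3.35 ± 1.74 CPM, and the interval of the log2 fold change (-3.12 to 3.19) is wide. Per kb of exon, the level of Bax was 35.5 ± 6.79 in old and 49.1 ± 9.28 in young HSCs, against 1.42 ± 0.693 and 1.39 ± 0.722 for Bak1. Exons of Bak1 overlap Ggnbp1 on the opposite strand by up to 257 bases in GENCODE M21, and without strand the reads of the overlap cannot be told apart. Ggnbp1 itself stood at 0 to 7.44 CPM. Bax overlaps Gm45808 on the same strand by up to 140 bases, and Bcl2 overlaps D630008O14Rik on the opposite strand by up to 497. Neither of these partners has a row in the count table, so no level can be given for them.

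Of the BH3-only genes, Bid and Bad were plentiful, Bcl2l11 and Bbc3 were scarce, and Pmaip1 was not detected. Bid, which caspase-8 cleaves to link death receptors to mitochondria, had 186, 152 and 102 CPM in old 1 to old 3. In young 1 to young 4 it had 160.4, 104, 169.6 and 176 CPM. Each group held 1 library near 100 CPM, old 3 and young 2, and the others lay above 150 CPM. The means were 146 ± 42.4 and 153 ± 32.7 CPM. The log2 fold change was -0.06 ± 0.29 (adjusted p = 0.987, edgeR), and its interval, 0.608-fold to 1.51-fold, was the narrowest of the 9. Bid overlaps Bcl2l13 on the opposite strand by up to 628 bases, and Bcl2l13 stood at 4.15 to 27.7 CPM in old and 18.5 to 59.9 CPM in young libraries.

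Bad, which growth factor signalling inactivates by phosphorylation, was the steadiest member in old HSCs. Its levels there were 63.4, 63.9 and 68.1 CPM. In young 1 to young 4 they were 50.1, 142, 50.97 and 68.1 CPM. Young 2 alone held a high level, and the old libraries lay inside the young range. The means were 65.1 ± 2.57 and 77.9 ± 43.8 CPM, a log2 fold change of -0.26 ± 0.43 (adjusted p = 0.970, edgeR) that was 0.21 without young 2. Bad overlaps Gpr137 on the opposite strand by up to 517 bases, and Gpr137 stood at 2.01 to 18.6 CPM.

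Bcl2l11, the activator BIM that FOXO factors induce when growth factors are withdrawn, was spread unevenly over the libraries. Its read counts were 0, 342 and 7 in old 1 to old 3 and 89, 115, 18 and 165 in young 1 to young 4. In CPM these were 0, 10.6 and 0.269 in old, and 3.90, 5.25, 0.650 and 5.75 in young HSCs. Old 2 thus held nearly all counts of its group and was the highest of the 7 libraries, while old 1 and old 3 lay below every young library. Such a spread was not unusual at this low level. The log2 SD of Bcl2l11 over the 7 libraries was above that of only 27% of the 500 genes nearest to it in level. The log2 fold change was -0.10 ± 2.04 (adjusted p = 0.995, edgeR), with an interval of -4.70 to 4.50. It was -4.82 without old 2, and limma-voom gave -2.86 with all libraries (adjusted p = 0.655), so neither the direction nor the size of a difference was resolved by these libraries.

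Bbc3, the p53 target PUMA, was steady in old HSCs and scattered in young. The old libraries held 3.10, 3.53 and 3.07 CPM. The young held 8.02, 1.60, 5.38 and 0.383 CPM, from 11 to 183 reads. The young range was 20.9-fold wide and enclosed the old libraries. Over all 7 libraries, however, the log2 SD of Bbc3 was above that of only 10.6% of the 500 genes nearest to it in level. The means were 3.23 ± 0.256 and 3.84 ± 3.50 CPM, with an interval of the log2 fold change of -3.67 to 3.17 (adjusted p = 0.991, edgeR). The sign turned with limma-voom, to 0.53, and without young 1, to 0.40. Pmaip1, which encodes the MCL1-binding protein NOXA, had 0 counts in all 7 libraries. By counting error alone this allows up to 0.0929 to 0.137 CPM in each, and other reasons for a missing count were not tested.

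**Figure D3:**
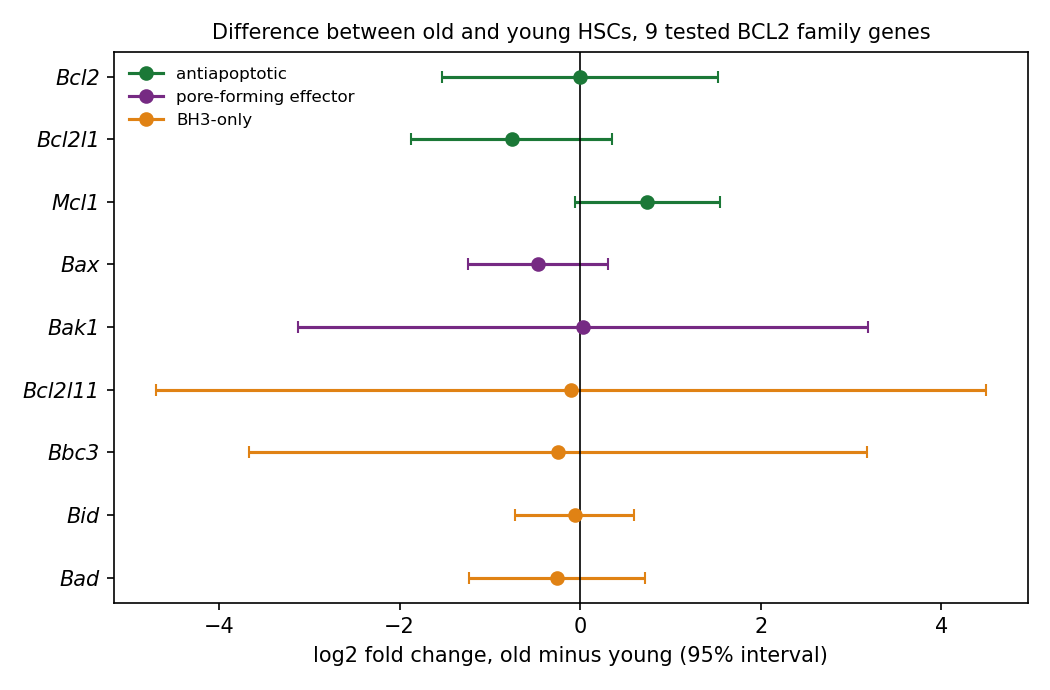
Log2 fold change of the 9 tested members, old minus young (horizontal axis), with approximate 95% intervals from edgeR, coloured by role. Every interval includes 0, and those of Bak1, Bcl2l11 and Bbc3, with 641, 736 and 654 counts in all, are the widest.

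The members differed far more from each other than between the groups. Per kb of exon, the order in old HSCs was Mcl1 (58.8), Bid (41.2), Bax (35.5), Bad (25.5), Bcl2l1 (11.2), Bcl2 (4.07), Bbc3 (1.52), Bak1 (1.42), Bcl2l11 (0.451) and Pmaip1 (0). Mcl1 was above Bid, Bax above Bad, Bad above Bcl2l1, and Bcl2l1 above Bcl2, with ranges that did not overlap. Bid and Bax overlapped, as did all neighbours from Bcl2 downward. In young HSCs the order was Bax (49.1), Bid (42.97), Mcl1 (35.1), Bad (30.5), Bcl2l1 (18.9), Bcl2 (4.08), Bbc3 (1.81), Bak1 (1.39), Bcl2l11 (0.484) and Pmaip1. There all neighbours from Bax down to Bcl2l1 overlapped, and Bcl2l1 lay above Bcl2 without overlap. The order of the leading genes rests on the length used. Per kb of coding sequence Bid came first in both groups (250.05 in old, 261 in young), followed by Mcl1 in old (203) and by Bax in young (126).

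By role, the summed levels per kb of exon were 74.1 ± 0.986 in old and 58.1 ± 20.8 in young HSCs for the antiapoptotic genes. For the effectors they were 37.0 ± 7.48 and 50.5 ± 9.11, and for the BH3-only genes 68.6 ± 11.1 and 75.7 ± 7.98. The groups overlapped in all 3 sums. Like the shares, these sums depend on the length used. Per kb of coding sequence the antiapoptotic sum was 299 to 351 in old and 149 to 389 in young libraries, with young 1 the highest. In old HSCs the mean BH3-only sum (331) then lay above the mean antiapoptotic sum (321), the reverse of the order of the means per kb of exon. Within each old library the order was the same with either length. The BH3-only sum was the larger in old 1, and the antiapoptotic sum was the larger in old 2 and old 3. In young HSCs the mean BH3-only sum was the larger with either length (357 against 286 per kb of coding sequence). In young 1, however, the antiapoptotic sum was the larger with both lengths.

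Genes with patterns like those of 4 members across the 7 libraries were named by a fixed measure. Likeness was measured as the root mean square difference of centred log2 CPM among tested genes averaging 50 CPM or more. The nearest to Mcl1 were Eif2b2 (0.18), Txnip (0.23) and Cited2 (0.25). The nearest to Bax were Dut, Pih1d1 and Faf1 (0.13 each). For Bcl2 they were G2e3 (0.33), Cast (0.38) and Trim21 (0.41). For Bcl2l11 they were 2810417H13Rik (1.39), Fbxo18 (1.52) and Strn4 (1.53). Bcl2l11 averages under 4 CPM and Bcl2 37.3 CPM in each group, so both were compared only with genes of a higher mean level.

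The wider apoptosis pathway was described with 72 further genes in 6 lists, of which 63 could be tested. In edgeR 0 of them passed the threshold (0.252% of all tested genes did), and 3 had an unadjusted p under 0.05 (9.12% of all). DESeq2 called 2 of 62, Sesn1 higher and Akt1 lower in old HSCs, where it called 4.96% of all its genes, and limma-voom called 0 (0.435% of all). Each of these shares lay below that of all genes, but the counts are small and the difference was not tested. The median log2 fold change of the 63 was 0.20, with 36 positive. In 6 (9.52%) the old libraries lay apart from the young, against 12.7% of all tested genes in either direction. In all 6 the old libraries lay above the young, as in 7.55% of all tested genes. These were Sesn1, Pim2, Diablo, Bmi1, Foxo1 and Cdkn1a, the last 3 named after their values were seen.

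Sesn1, a stress-induced inhibitor of mTORC1 and a target of p53, had the smallest p of the pathway genes. It stood at 563, 626 and 500.4 CPM in old 1 to old 3 and at 309, 149.7, 272 and 353 CPM in young 1 to young 4, so the groups did not overlap. The log2 fold change was 1.06 ± 0.28, with an adjusted p of 0.204 in edgeR and 0.0199 in DESeq2. The 12 tested p53 targets had a median of 0.53, with 9 positive. Trp53 itself averaged 265 and 230 CPM. Bax and Bbc3, members known as p53 targets, had log2 fold changes of -0.47 ± 0.34 and -0.25 ± 1.52, and neither passed the threshold. The sign of Bbc3 turned with limma-voom and without young 1, so its direction was not resolved. Whether p53 acts on these members here was not tested. The second gene of this list by p was the nuclease gene Aen, at 15.7 ± 0.941 CPM (old) and 34.3 ± 21.7 CPM (young), with an edgeR adjusted p of 0.778.

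Among 18 regulators of the members, Pim2 and Akt1 had the smallest p. Pim2, a kinase that phosphorylates BAD, stood at 249, 257 and 226 CPM in old and at 85.6, 141, 166 and 148 CPM in the young libraries, without overlap (edgeR log2 fold change 0.85 ± 0.26, adjusted p = 0.281). Akt1, another kinase of BAD, stood at 17.6, 12.01 and 23.5 CPM in old and at 31.01, 18.5, 179 and 127 CPM in young HSCs. Young 3 and young 4 held its high levels, and young 2 lay inside the old range (log2 fold change -2.33 ± 0.80, adjusted p of 0.346 in edgeR and 0.0487 in DESeq2). The list's median was 0.20, with 12 of 18 positive.

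Of the 17 other BCL2 relatives, 9 could be tested, with a median of -0.58 and 3 positive. Bcl2l13, a mitochondrial relative tied to mitophagy, had means of 14.9 ± 11.9 CPM (old) and 44.7 ± 18.1 CPM (young), with an edgeR adjusted p of 0.625, and shares exon sequence on opposite strands with Bid. Bnip3, a hypoxia-induced mitophagy receptor, averaged 114 ± 4.93 and 85.4 ± 24.4 CPM (adjusted p = 0.842). The BH3-only genes Bmf and Hrk had no count in any library. The Bcl2a1 genes are near-identical copies among which reads may be split, and the only one tested, Bcl2a1b, had means of 0.979 CPM (old) and 2.40 CPM (young).

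Steps after the mitochondrial pore were measured by 14 genes of the apoptosome, caspases and nucleases, all tested, with 7 positive and a median of -0.12. Diablo, whose product frees caspases from their inhibitors, stood at 268, 303 and 303 CPM in old and at 225 to 262 CPM in the young libraries (log2 fold change 0.26 ± 0.18, adjusted p = 0.830, edgeR). Casp9, the initiator of the apoptosome, held 0 to 0.922 CPM in old HSCs and 0.0438, 0.0913, 7.08 and 24.2 CPM in young 1 to young 4, so its counts came almost wholly from young 3 and young 4 (adjusted p = 0.733). The 4 caspase inhibitor genes had a median of 0.01. Of these, Birc6 had means of 21.3 ± 2.73 CPM (old) and 37.1 ± 23.5 CPM (young; edgeR adjusted p = 0.894), and Birc2 of 129 ± 26.5 and 156 ± 43.97 CPM (adjusted p = 0.918).

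The 8 genes of death receptors and their adaptors, which act upstream of BID, had a median of 0.32, with 5 positive. Traf2, a signalling adaptor, had means of 49.97 ± 5.22 CPM (old) and 79.5 ± 24.1 CPM (young; edgeR adjusted p = 0.704), with young 1 just below the old libraries. Tnfrsf10b, a receptor for TRAIL, held 19.1 CPM in old 3 and 0 to 2.28 CPM in the 6 other libraries (adjusted p = 0.842).

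**Figure D4:**
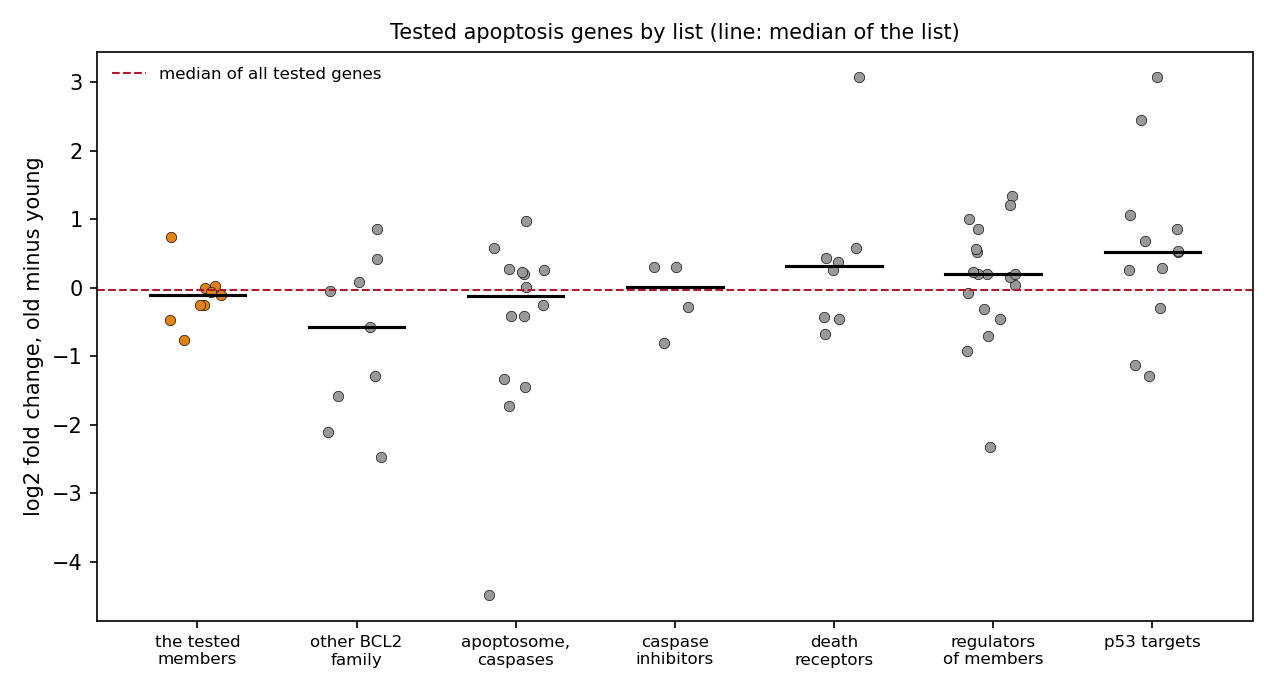
Log2 fold change, old minus young (vertical axis), of the 9 tested members and of the tested genes of 6 apoptosis lists; each point is 1 gene, the black line is the median of its list, and the dashed line is the median of all tested genes (-0.03). No gene shown passed the threshold in edgeR, and Fas and Tnfrsf10b appear in 2 lists.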

How the data were processed

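Trimmomatic, FastQC, STAR and featureCounts are named in the submitters' processing notes, with build mm9; no source used here gives versions, annotation or strand setting. Per the labels, cDNA was made by Smart-seq+ and libraries with Nextera XT. The authors deposited raw counts of reads by gene symbol, with a column for each library; no molecular identifiers are stated, so amplification copies are counted.

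edgeR 4.0.16 was the main tool, run in R 4.3.3; limma 3.58.1 and DESeq2 1.42.0 served as alternatives. Genes passed filterByExpr (minimum count 10, total 15) and TMM set the scaling. The 2-sided quasi-likelihood test had group as its only term, with Benjamini-Hochberg adjustment over 11506 genes. The SE follows from the fold change and its F value, and 95% intervals use that test's degrees of freedom. The script was tested on simulated data. Gene lengths came from GENCODE M21 (GRCm38), which held 22709 of 24015 symbols. Named genes are the members, the 2 genes with the smallest p of each list, and the 3 nearest in pattern to Mcl1, Bcl2, Bcl2l11 and Bax. Trp53, Bmf, Hrk, Bcl2a1b, Bmi1, Foxo1, Cdkn1a, the overlapping genes and the cell markers named singly fall outside this rule and were chosen after their values were seen. The members and lists were chosen with earlier results of these data known. Other scalings, filters and thresholds, a replicate block and leaving out libraries were tried too.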

Additional observations from a re-analysis of the deposited data

Results flagged for a closer look

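Traf2 stood at 43.8 CPM in young 1 and at 86.9 to 95.7 CPM in the 3 other young libraries, a gap of 0.830 of the group's range, just past Dixon's limit for 4 samples. Of the members and the named pathway genes, 21 had counts in young libraries and were checked in this way, and chance marks about 1 in 20 such groups.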

How the results depend on the processing

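No member passed the threshold under any alternative: of 140 member values (9 members, up to 16 settings each), 117 kept their direction, 23 turned, and the smallest adjusted p was 0.289. Mcl1, Bcl2l1 and Bax kept their direction in all 16. Leaving out 1 library at a time gave log2 fold changes of -0.68 to 0.42 for Bcl2, -0.40 to 0.34 for Bak1, -4.82 to 0.48 for Bcl2l11, -0.63 to 0.40 for Bbc3, -0.27 to 0.15 for Bid and -0.42 to 0.21 for Bad. Bak1 was also negative with library size alone (-0.065), which put the median of all genes at -0.12, and Bbc3 was positive in limma-voom (0.53). Leaving out both young 1 and young 2, an alternative chosen after seeing the data, turned Bak1 (-0.028), Bcl2l11 (0.18), Bbc3 (0.16) and Bad (0.13). The cause of these turns was not tested. Over all genes, 29 calls became 586 in DESeq2, 50 in limma-voom, 16 with library size alone, 130 above 50 CPM, 49 at an adjusted p under 0.10, 7 without both young libraries, and 2 to 18 without 1 library. Of the pathway genes, DESeq2 called 2 and each other setting 0.

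The same replicate numbers in old and young pair nothing that the labels name, and the deviations of same-numbered libraries correlated at only 0.0254, -0.0745 and -0.0136 across genes. With the replicate block, without young 4, edgeR called 0 genes over all (11 in the fit without young 4 and without the block) and 0 members, with Bak1 at -0.14 and Bid at 0.0071. Bak1, Bcl2l11 and Bbc3 had 641, 736 and 654 counts in 7 libraries, and those of Bcl2l11 ran from 0 to 342 within old HSCs and those of Bbc3 from 11 to 183 within young; the parts of depth and of spread between libraries in their wide intervals were not tested.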
